A study of Mus musculus with 6 samples.

Results

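The genes described here are the monocarboxylate transporters of the Slc16 family, the membrane glycoproteins that escort them and both subunits of lactate dehydrogenase: Slc16a1, Slc16a3, Slc16a6, Slc16a7, Slc16a10, Slc16a13, Bsg, Emb, Ldha and Ldhb. They were chosen by name, and a probe was used where the platform annotation lists 1 of these genes and no other. Of the 10 genes 9 had such a probe, and each of the 9 had exactly 1, so the rule to read each gene at the probe selected on the highest mean log2 intensity over all 6 samples decided nothing. These are 9 of 33012 probes on the array. Slc16a7, the transporter MCT2, was not analysed here. RAW 264.7 is a mouse macrophage-like cell line, and every sample was stimulated for 24 h with 1 μg/mL LPS, a bacterial endotoxin that activates macrophages. In 3 samples LPS was the only addition, and in the other 3, called 15-HETE + LPS, the cells first received 40 μM 15(S)-HETE, a hydroxylated fatty acid made from arachidonic acid by lipid peroxidation or lipoxygenases. Each sample pooled 6 wells, and as all samples carry LPS, the comparison sets activated cells with 15-HETE against those without and shows nothing of LPS itself. The labels do not say whether both groups were run together. A difference between runs, if there was one, cannot be told apart from the treatment. The question was which transcripts 15-HETE alters in activated macrophage-like cells, given that this lipid is carried on malaria pigment.

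Macrophages activated by LPS run glycolysis at a high rate and release lactate. Lactate dehydrogenase interconverts pyruvate and lactate. Its A subunit, Ldha, prevails in glycolytic cells, and its B subunit, Ldhb, in tissues that oxidise lactate. Lactate crosses the plasma membrane together with a proton, mainly through MCT1 (Slc16a1), which is widely expressed and works in either direction, and MCT4 (Slc16a3), which is suited to export and is a known target of the hypoxia-inducible factor. Basigin (Bsg) is needed to place both on the cell surface, and embigin (Emb) is its relative and the usual partner of MCT2. Other members of the family carry other cargo, such as aromatic amino acids in the case of Slc16a10.

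The start-proximal sequences of the genes with the widest differences are shown because Slc16a1 was higher, and Slc16a3 and Ldhb lower, in every treated sample. Each is the 250 bases before an annotated transcript start (RefSeq, GRCm38.p6), and capitals mark the core of the hypoxia response element, ACGTG or GCGTG, read on either strand.
Slc16a1, chr3:104638414-104638663, plus strand: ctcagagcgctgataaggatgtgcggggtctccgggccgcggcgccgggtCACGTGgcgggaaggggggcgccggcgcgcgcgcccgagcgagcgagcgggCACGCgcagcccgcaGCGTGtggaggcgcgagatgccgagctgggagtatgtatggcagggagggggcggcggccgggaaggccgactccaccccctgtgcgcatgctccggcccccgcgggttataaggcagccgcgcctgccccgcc
Slc16a3, chr11:120948817-120949066, plus strand: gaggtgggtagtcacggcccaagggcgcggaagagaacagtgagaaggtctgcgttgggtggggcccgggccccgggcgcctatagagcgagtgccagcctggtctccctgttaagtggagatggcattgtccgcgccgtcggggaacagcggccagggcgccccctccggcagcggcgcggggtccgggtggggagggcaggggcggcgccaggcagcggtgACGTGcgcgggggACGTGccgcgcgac
Ldhb, chr6:142507958-142508207, minus strand: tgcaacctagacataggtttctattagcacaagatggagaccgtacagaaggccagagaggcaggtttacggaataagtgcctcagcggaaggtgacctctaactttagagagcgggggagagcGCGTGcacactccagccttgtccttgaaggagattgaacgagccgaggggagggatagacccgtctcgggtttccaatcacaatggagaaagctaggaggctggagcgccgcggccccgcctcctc
The Slc16a1 stretch held 4 matches, 2 of them the overlapping strands of 1 CACGTG hexamer, the Slc16a3 stretch held 2 and the Ldhb stretch 1. It was also found before Slc16a10 and both Ldha starts, and not before Emb. The core is common, and 38.6% of 32851 stretches of this length before RefSeq starts hold it. The CACGTG hexamer, or E-box, which contains the core on each strand, was found before Slc16a1 and before 1 of 2 Ldha starts, and in 6.02% of all stretches. GGGCGG, the GC box, read on both strands, was found before Slc16a1, Slc16a3, Slc16a10, Emb and 1 of 2 Ldha starts, not before Ldhb, and in 32.7% of all stretches. Neither TGACTCA nor TGAGTCA (AP-1, 4.46% of all stretches) nor GCGGGGGCG or GCGTGGGCG (EGR factors, 3.06%) was found before any of the 6 genes with a sequence, each searched on both strands. Both carriers have stretches rich in G and C (76.4% for Slc16a1 and 73.6% for Slc16a3), against a median of 52.4% over all stretches, and Ldhb had 56.4%. The Slc16a3 stretch lies inside the annotated gene (chr11:120948484-120959000), as that gene has a further start upstream. These matches describe the letters only.

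The intensities are linear chemiluminescent signals that the authors quantile normalized, so all 6 samples had the same median, 837, and ran from 46.2 to 3047298, and the number of arrays limits the precision. No signal-to-noise or flag values accompany the table, so whether a probe lay above background could not be read from it, and 8 of the 9 probes lay above the array median (Emb did not). Across probes, log2 values correlated at 0.972 to 0.979 between LPS samples and at 0.955 to 0.962 between 15-HETE + LPS samples. Of 14 macrophage markers 10 had a probe, all 10 above the array median, and their summed intensity was 3102205 to 3981182 in LPS samples and 4413919 to 4601591 in 15-HETE + LPS samples. Lyz2 led this sum, with means of 2119353 and 2573367. The log2 fold changes of the 10 ran from -0.08 (Mertk) to 0.62 (Fcgr3). Of the markers of other cells, the 8 of fibroblasts summed to 24954 to 31037 and to 16718 to 17843, led by Dcn. The 6 of epithelial cells summed to 67226 to 71930 and to 36755 to 47469, led by Cldn4. Epcam and Cdh1 were brighter than 17.8% and 14.6% of probes, and Krt8 and Cldn4 than 65.8% and 91.8%. The epithelial log2 fold changes were mixed, at 0.42 for Epcam and 0.61 for Cdh1. They were -1.05 for Krt8, -0.93 for Krt19, -0.75 for Cldn4 and -0.04 for Krt18. The summed levels of lymphocyte (6 measured), granulocyte (6), erythroid (4) and endothelial (5) markers overlapped between the groups, and no gene of any marker list passed the test used below. The part of these shifts in the values that follow was not tested. All samples are of 1 cell line, so the sums are not read as shares of cell types. In bulk RNA, fewer cells that express a gene and less RNA per cell cannot be told apart.

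Slc16a1 was higher and Slc16a3 lower in every sample that received 15-HETE, and Ldhb was lower in all 3 as well, while Ldha hardly differed. The Slc16a1 probe read 2796, 1850 and 2322 in the LPS samples (2323 ± 473, SD, n = 3) and 9969, 9676 and 9813 in the 15-HETE + LPS samples (9819 ± 146.5, SD, n = 3). The groups lay far apart, and the treated samples were nearly equal to each other. The log2 fold change was 2.10 (standard error, SE, 0.21, 95% interval 1.59 to 2.61), or 4.29-fold.

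The Slc16a3 probe read 94187, 78495 and 88118 in LPS samples (86933 ± 7913, SD, n = 3). After 15-HETE it read 37328, 34919 and 36387 (36212 ± 1214, SD, n = 3). Again no treated sample reached the level of any LPS sample. The log2 fold change was -1.26 (SE 0.17, 95% interval -1.68 to -0.84). In the order of LPS replicates the highest reading was that of replicate 1 for both carriers and the lowest that of replicate 2, so within the LPS group the carriers did not oppose each other. Both genes were already known to differ in these samples when the genes were grouped, and their levels are given as a description.

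**Figure D1:**
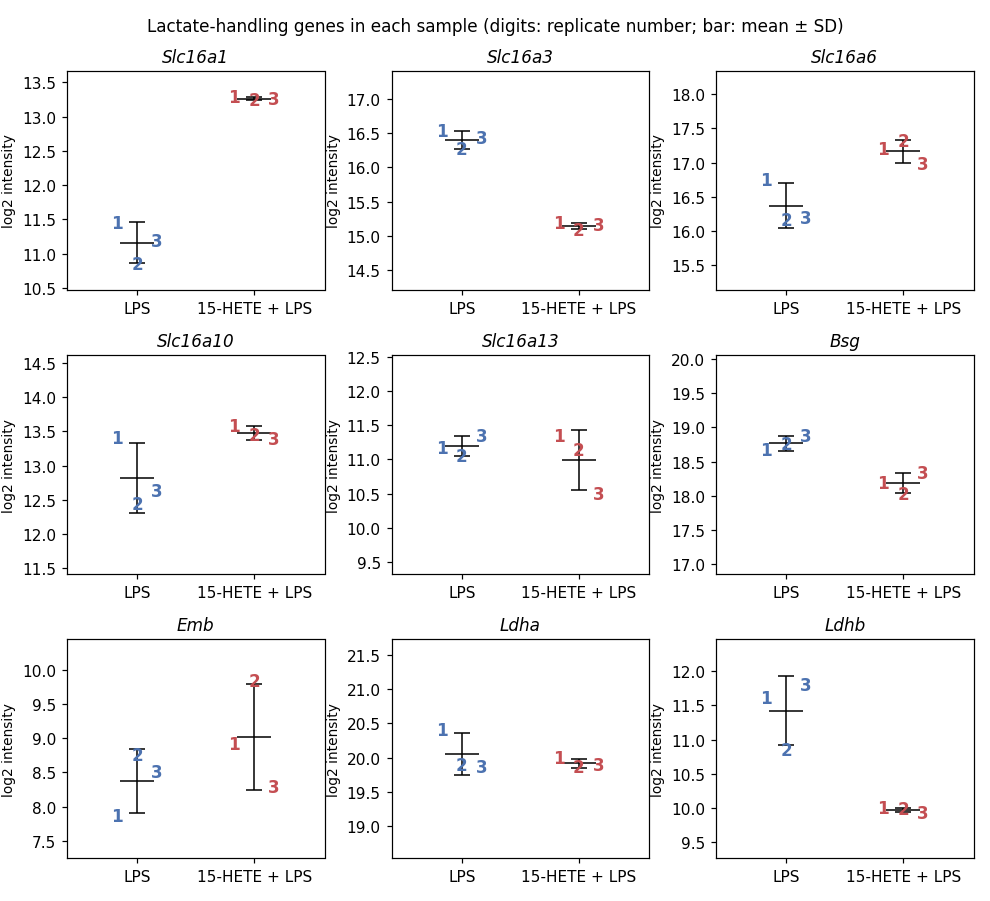
Log2 intensity (y axis, with the same span in every panel) of each of the 9 measured genes in LPS and 15-HETE + LPS samples; digits give the replicate number, and bars the mean ± SD of 3 samples. The groups do not overlap for Slc16a1, Slc16a3, Slc16a6, Bsg and Ldhb, and the Ldha samples lie together except for LPS replicate 1.

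Within each sample the log2 difference between the Slc16a1 and Slc16a3 probes does not depend on a constant factor applied to that sample. An effect of normalization that varies with intensity does not cancel. The difference was -5.07, -5.41 and -5.25 in LPS samples and -1.90, -1.85 and -1.89 in 15-HETE + LPS samples. The gap between the 2 probes thus narrowed by 3.36 on the log2 scale (SE 0.10), and the treated samples differed among themselves by less than the LPS samples did. Since the probes differ in how they hybridise, only this shift is interpretable, and not which transcript was the more abundant.

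Of the escorts, Bsg was lower in every treated sample, and Emb was too variable to place. Bsg, required by MCT1 and MCT4 at the surface, read 416406, 442787 and 482993 in LPS samples and 299608, 268338 and 330474 after 15-HETE. The lowest LPS sample was above the highest treated sample. Its log2 fold change was -0.58 (SE 0.18, adjusted p = 0.159 from limma), and it did not pass. The values of Bsg, like those of Slc16a1 and Slc16a3, were already known when the genes were grouped. They are given as a description, as is the difference Emb minus Bsg below. Emb, the partner of MCT2, read 232, 432 and 362 in LPS samples and 482, 911 and 313 after 15-HETE. The groups overlapped, and replicate 2 was the highest in both groups. The log2 fold change was 0.64 with a 95% interval of -0.44 to 1.73 (adjusted p = 0.474), at a probe in the lower part of the array's range. It was 0.23 without 15-HETE + LPS replicate 2, 0.39 without LPS replicate 1 and 1.0 without 15-HETE + LPS replicate 3. The within-sample difference Emb minus Bsg went from -10.40 ± 0.41 to -9.17 ± 0.92 on the log2 scale (SD, n = 3), a shift of 1.22 that did not pass (exact permutation test, two-sided p = 0.2, where 0.1 is the smallest that 3 against 3 samples allow).

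Of the subunits of lactate dehydrogenase, Ldhb was lower in every treated sample and Ldha overlapped between the groups. Ldhb read 3134, 1852 and 3563 in LPS samples (2849 ± 890, SD, n = 3) and 1023, 1015 and 977 after 15-HETE (1005 ± 24.3, SD, n = 3). Every treated sample was below every LPS sample, and the LPS samples were the more dispersed, with a log2 SD of 0.50 against 0.04. The log2 fold change was -1.45 (SE 0.28, 95% interval -2.13 to -0.77), or 2.73-fold lower. At an adjusted p of 0.0724 from limma Ldhb did not pass the threshold of 0.05, although its fold exceeded that of Slc16a3, whose LPS samples were closer together.

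Ldha, which makes the subunit that favours lactate formation, read 1382921, 976116 and 948888 in LPS samples and 1043444, 952870 and 972214 after 15-HETE. LPS replicate 1 was higher than the other 5 samples, which lay between 948888 and 1043444. On the log2 scale the change was -0.14 with a 95% interval of -0.66 to 0.39 (adjusted p = 0.765), and without LPS replicate 1 it was 0.04, so its sign rested on that sample. The probe was brighter than 99.3% of probes on the array. The within-sample difference Ldhb minus Ldha was -8.79, -9.04 and -8.06 in LPS samples and -9.99, -9.88 and -9.96 in treated samples. The groups did not overlap, and the shift of -1.31 (SE 0.30) had an exact two-sided permutation p = 0.1, the smallest that this design allows.

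**Figure D2:**
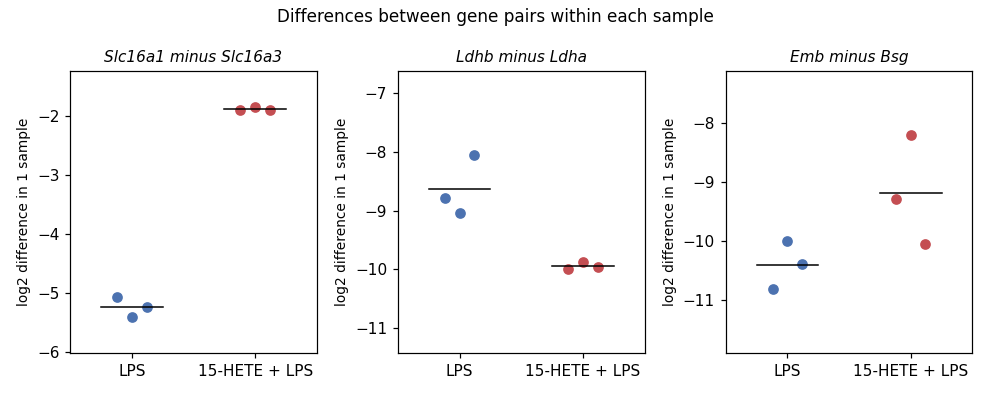
Log2 difference between 2 probes within each sample (y axis, with the same span in each panel) for Slc16a1 minus Slc16a3, Ldhb minus Ldha and Emb minus Bsg; points are samples and lines the means of 3. Slc16a1 minus Slc16a3 rises from about -5.24 to -1.88, Ldhb minus Ldha goes from -8.63 to -9.94, and the Emb minus Bsg groups overlap.

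Among the other carriers Slc16a6 was higher in each treated sample, while Slc16a10 and Slc16a13 overlapped between the groups. Slc16a6, also called MCT7 and linked to ketone body transport, read 109950, 73519 and 74745 in LPS samples and 150948, 162488 and 128883 after 15-HETE. The log2 fold change was 0.80 (SE 0.23, 95% interval 0.23 to 1.36, adjusted p = 0.144 from limma) and did not pass. LPS replicate 1 was the sample nearest to the treated ones, and without it the log2 fold change was 0.99. Slc16a10, which carries aromatic amino acids and not lactate, read 10859, 5581 and 6312 against 12274, 11224 and 10743. Here LPS replicate 1 fell within the treated samples and the other LPS samples lay far below. Its log2 fold change of 0.65 (adjusted p = 0.282) became 0.94 without that sample and 0.46 without LPS replicate 2. Slc16a13, a family member found at the membrane of liver cells, read 2305, 2127 and 2607 against 2597, 2243 and 1447, a log2 fold change of -0.20 with a 95% interval of -0.85 to 0.45 (adjusted p = 0.718), and it turned to 0.05 without 15-HETE + LPS replicate 3, the lowest sample.

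Ordered by log2 fold change, the 9 genes ran from Slc16a1 (2.10) through Slc16a6 (0.80), Slc16a10 (0.65), Emb (0.64), Ldha (-0.14), Slc16a13 (-0.20), Bsg (-0.58) and Slc16a3 (-1.26) to Ldhb (-1.45). The 95% intervals of neighbours in this order overlapped, except between Slc16a1 and Slc16a6. In the limma test across all 33012 probes, at a Benjamini-Hochberg adjusted p under 0.05, 1 of the 9 was higher, Slc16a1 (adjusted p = 0.0327), and 1 was lower, Slc16a3 (adjusted p = 0.0474). Of all probes 0.509% were called higher and 0.442% lower. As both calls, and the values of Bsg, were known when the genes were grouped, nothing is read from this count or the member counts below. When the prior variance of limma was allowed to follow intensity (the intensity trend), 2 were higher, Slc16a1 and Slc16a6 (adjusted p = 0.0226), and 3 lower, Slc16a3, Bsg (adjusted p = 0.0351) and Ldhb (adjusted p = 0.0196), where 3.87% and 4.96% of all probes were called. Among probes above the array median, which leave out Emb, limma also called 2 higher and 3 lower of 8 (7.31% and 9.63% of those probes). Above the lower quartile it called 1 and 2 (2.30% and 2.64%), and with a robust prior 1 and 0 (0.303% and 0.188%). When a sample was left out, whichever it was, limma called 0 of the 9 and 0 probes on the array, whereas with the intensity trend it called 2 to 6 of the 9, Slc16a1 and Slc16a3 each time. With all 6 samples 5 of the 9 had an unadjusted p under 0.05 in limma, as did 19.6% of all probes.

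Groups without overlap were found for 5 of the 9 genes, 2 higher and 3 lower, and for 30.0% of all probes. All 5 probes lie above the array median, where 45.6% of probes showed no overlap. The fold rule of the study asks for a change of 1.8-fold, relative to the LPS mean, in 2 of the 3 treated samples. It was met by Slc16a1 (4.29, 4.17 and 4.22 times that mean), Slc16a3 (0.429, 0.402 and 0.419) and Ldhb (0.359, 0.356 and 0.343), in all 3 treated samples each. That is 1 higher and 2 lower of 9, and among all probes 6.88% met the rule upward and 10.3% downward. Slc16a6 met it in 1 of 3 samples, at 1.89 times. The median log2 fold change of the 9 was -0.14 and that of all probes 0.007. The median size of the change without its sign was 0.65 and 0.39. The values of Slc16a1, Slc16a3 and Bsg were known when the genes were grouped, so nothing is read from these counts and medians.

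**Figure D3:**
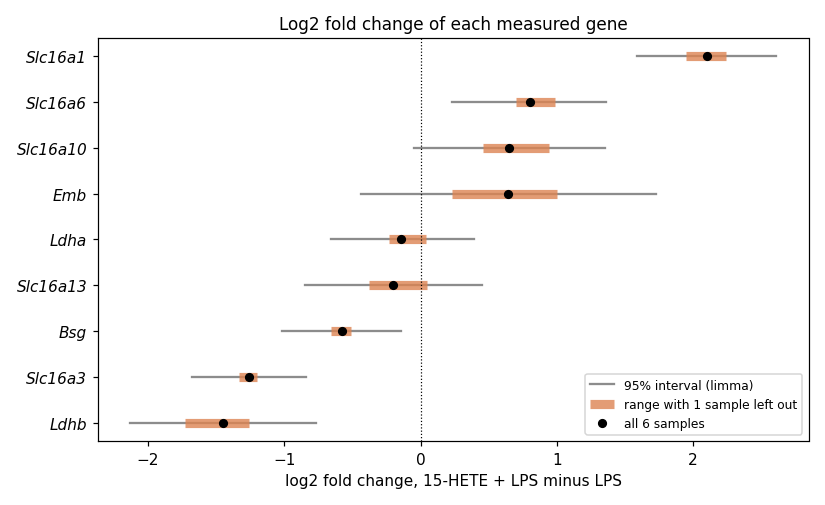
Log2 fold change, 15-HETE + LPS minus LPS (x axis), of the 9 measured genes; points use all 6 samples, thin lines are 95% intervals from limma and thick bars the range with any 1 sample left out. The 95% intervals of Slc16a1 at 2.10, Slc16a6 at 0.80, Bsg at -0.58, Slc16a3 at -1.26 and Ldhb at -1.45 lie clear of 0. The bars of Ldha and Slc16a13 cross 0.

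The genes around lactate in the same pathways were read from lists of names, each gene at its brightest probe. The lists were drawn up with earlier results of these data known, so nothing is read from their counts of calls. Of 107 listed genes 80 had a probe, and limma called 2 higher and 1 lower, Car2, Ddit4 and Pdk4, with 9 higher and 7 lower under the intensity trend. Over all probes the shares called were 0.509% and 0.442% with limma and 3.87% and 4.96% with the trend. The median log2 fold change of the 80 was -0.037.

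Among 9 measured genes of pyruvate entry and the pyruvate dehydrogenase complex limma called 0 higher and 1 lower, beside 0.509% and 0.442% of all probes. Pdk4, the kinase that inactivates pyruvate dehydrogenase and so restrains the conversion of pyruvate to acetyl-CoA, read 1033, 1116 and 1013 in LPS samples and 312, 227 and 266 after 15-HETE. All treated samples lay far below the LPS samples, and the log2 fold change was -1.99 (SE 0.19, adjusted p = 0.0327 from limma). The probe was brighter than 42.4% of probes. Whether its treated readings lay above background could not be read, so the size of the change is uncertain. Pdhx (0.58, adjusted p = 0.192) and Pdhb (0.52, adjusted p = 0.192), subunits of the complex, did not pass, and the list had a median of -0.178.

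In the list of proton and bicarbonate handling limma called 1 of 14 measured genes higher and 0 lower, with a median of -0.188. It called 0.509% of all probes higher and 0.442% lower. Carbonic anhydrase 2, Car2, which interconverts carbon dioxide and bicarbonate and is known to aid proton-coupled lactate flux, read 2155, 1942 and 2186 in LPS samples and 7781, 9668 and 7893 after 15-HETE. The groups were well apart, with a log2 fold change of 2.01 (SE 0.18, adjusted p = 0.0327 from limma). The study had already listed this gene, as Ca2, among those raised by 15-HETE, so its values are a description. The scaffold protein Slc9a3r1 (-1.14, adjusted p = 0.0593) and the anion exchanger Slc4a2 (46231 ± 12006 in LPS samples and 22585 ± 794 after 15-HETE, SD, n = 3, adjusted p = 0.0961) did not pass.

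Of 15 measured hypoxia response genes 1 was called higher and 0 lower by limma, and their median was -0.003. The shares of all probes were 0.509% and 0.442%. The mTOR inhibitor Ddit4 read 4123, 3713 and 4319 in LPS samples and 9568, 10264 and 8548 in the treated samples. Here the log2 fold change was 1.22 (SE 0.18, adjusted p = 0.0498). Egln3, a prolyl hydroxylase that marks the hypoxia-inducible factor for decay, had the higher value of 2.26 without passing (adjusted p = 0.0677). It went from 250 ± 111 to 1136 ± 308 (SD, n = 3), at a probe brighter than only 41.0% of probes. The mitochondrial protein Higd1a had 0.93 (adjusted p = 0.266).

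For glycolysis limma called 0 of 19 measured genes at an adjusted p under 0.05, while 9 had an unadjusted p under 0.05, and 3 were higher and 3 lower with the intensity trend. Over all probes 19.6% had an unadjusted p under 0.05, and the trend called 3.87% higher and 4.96% lower. The list median was -0.090. The pyruvate kinase gene Pklr had -1.42 (adjusted p = 0.0612), Slc2a1, which takes up glucose, 1.24 (adjusted p = 0.0960) and Pfkfb3, whose product activates phosphofructokinase, had 0.85 (adjusted p = 0.112). Each of these, taken for the lowest p in the list, had no overlap between the groups, and their signs differed. No overlap was found for 11 of the 19 genes, for 30.0% of all probes and for 45.6% of those above the array median.

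Limma called 0 genes in the remaining lists, which held 8, 6, 7 and 2 measured genes. Across these lists 4 genes had an unadjusted p under 0.05 in limma, as did 19.6% of all probes. With the intensity trend 1 was called higher and 1 lower, where 3.87% and 4.96% of all probes were called. Among 8 other measured carriers of the Slc16 and Slc5 families, 7 had a positive log2 fold change (median 0.198), the largest of the 3 with the lowest p being that of the carnitine carrier Slc16a9 (0.77, adjusted p = 0.220), followed by the creatine carrier Slc16a12 (0.74) and the sodium-coupled Slc5a12 (0.70), with overlap between the groups for both of the latter. In the list of lactate and proton sensing, with 6 measured genes and a median of -0.241, the lactate receptor Hcar1 had -1.08 (adjusted p = 0.110), Ndrg3 had 0.60 (adjusted p = 0.164) and the proton-sensing receptor Gpr65 had -0.39 (adjusted p = 0.404). Among 7 measured genes of the shuttles that carry cytosolic NADH equivalents into mitochondria (median 0.084), the glycerol phosphate dehydrogenases Gpd2 and Gpd1 had -0.55 (adjusted p = 0.221) and 0.34 (adjusted p = 0.524), and the aspartate-glutamate carrier Slc25a13 had -0.21 (adjusted p = 0.539). Both further lactate dehydrogenase genes, the testis form Ldhc (-0.70, adjusted p = 0.271) and Ldhal6b (-0.44, adjusted p = 0.294), were lower in each treated sample without passing. Over all probes 30.0% had no overlap between the groups in either direction. The Ldhc probe was brighter than only 15.7% of probes.

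**Figure D4:**
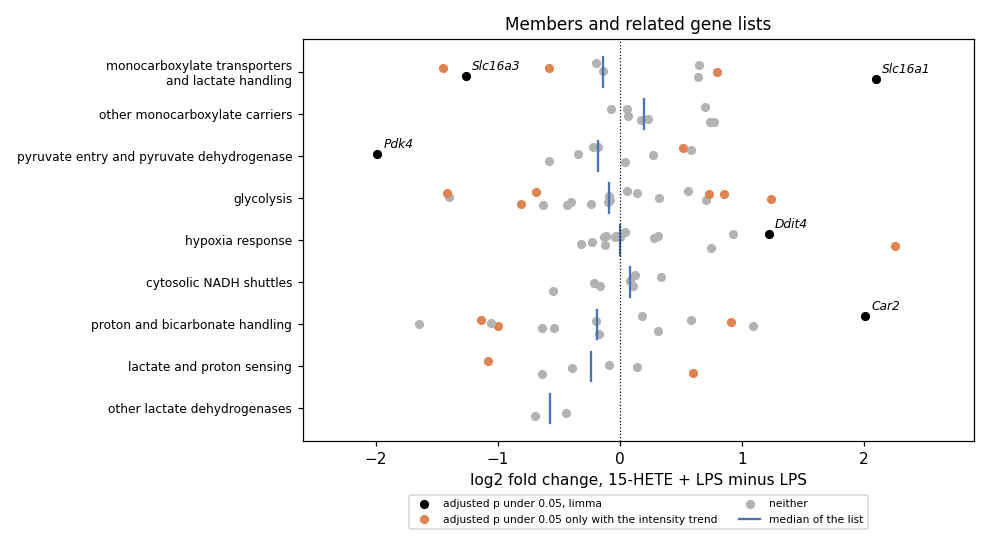
Log2 fold change, 15-HETE + LPS minus LPS (x axis), of the 9 measured genes (top row) and of 8 lists of related genes; each point is a gene, black where limma called it, orange where only the fit with the intensity trend did, and blue lines are list medians. Slc16a1, Car2 and Ddit4 lie to the right and Slc16a3 and Pdk4 to the left as the called genes, and the list medians run from -0.569 to 0.198.

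The genes whose log2 values ran most like those of the 2 lactate carriers over the 6 samples were sought among 8592 genes with a probe above the array median. For Slc16a1 these were Arhgap12 (Pearson's r = 0.9984), the kinase Map2k4 (0.9977) and the phosphoinositide kinase subunit Pik3cd (0.9973), with log2 fold changes of 1.16, 0.55 and 0.47. For Slc16a3 they were the neuropeptide gene Npff (0.9994), Vat1 (0.9994) and the cell cycle phosphatase Cdc25a (0.9984), with log2 fold changes of -0.59, -0.77 and -1.11. The 6 points share their arrays and fall into 2 groups, so the likeness includes the treatment difference itself, and it is given as a description.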

How the data were processed

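Total RNA of RAW 264.7 cells was measured on ABI mouse genome survey arrays, 3 samples per group. The deposited linear intensity values were made by the authors with the analyzer's expression array software and quantile normalized. The filter on signal to noise and flags that the methods name could not be repeated from the table. Values were turned to log2 and compared with limma 3.58.1 in R 4.3.3 (lmFit, eBayes with the default prior, two-sided, Benjamini-Hochberg over 33012 probes), in place of the unequal-variance t-test of the methods, which was an alternative. Single differences used exact permutation. Genes were named by the platform annotation, and all 9 measured genes kept their symbol in RefSeq (GRCm38.p6). Named were all members, the 3 genes with the lowest p of each list, and the 3 most alike to each of 2 carriers. Members and lists were chosen with earlier results of these data known. Robust fits used statmod 1.5.0. Further alternatives were an offset, normalizations, filters on dim probes, a block for the replicate number, and the omission of each sample.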

Additional observations from a re-analysis of the deposited data

How the results depend on the processing

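A change of test, prior or filter cannot alter a log2 fold change, so no sign could be lost there. Quantile normalizing values that were already so normalized left them as they were. Under the offset and cyclic loess, which can move a value, each of the 9 genes kept its sign. Emb lay below the array median and was not fitted among probes above it. The sign was lost only without 1 sample, for Ldha at 0.04 without LPS replicate 1 and for Slc16a13 at 0.05 without 15-HETE + LPS replicate 3. Calls depended on the fit. Of the 9, limma called 1 higher and 1 lower, against 2 and 3 with the intensity trend, 2 and 3 of the 8 fitted above the array median, 1 and 2 above the lower quartile, 1 and 0 with a robust prior, and 0 and 0 with the t-test of the methods (5 of the 9, and 15.1% of probes, had an unadjusted p under 0.05 in it). That t-test was adjusted here over all probes, whereas the methods applied it to probes past their fold rule, a procedure that was not run. On the whole array, with 168 higher and 146 lower, these settings gave 1279 and 1638, 1207 and 1589, 570 and 654, 100 and 62, and 0 and 0, and the offset of 50 gave 269 and 256. For the related gene lists, with 2 higher and 1 lower, the numbers were 9 and 7 with the intensity trend, 8 and 5 above the median, 3 and 3 above the lower quartile, 1 and 1 with the robust prior, 0 and 0 with the t-test and 2 and 2 with the offset. With the intensity trend the adjusted p of Ldhb was 0.0196, and with 1 sample left out it passed in 3 of 6 such fits.

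Leaving out 1 sample gave 0 higher and 0 lower on the array with the default prior. With the trend it gave 535 to 2595 higher and 688 to 2540 lower, the highest in each case without LPS replicate 1. The log2 fold change ran from -0.23 to 0.04 for Ldha and from -0.38 to 0.05 for Slc16a13. Over both kinds of fit the array counts thus ran from 0 to 2595 higher and from 0 to 2540 lower, the 9 genes ranged from 0 to 3 higher and from 0 to 3 lower, and the related genes from 0 to 20 higher and from 0 to 12 lower. The shift of Ldhb minus Ldha ran from -1.52 to -1.03 and that of Emb minus Bsg from 0.74 to 1.66. As each of the 9 genes had 1 probe, averaging probes changed nothing.

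The replicate number does not pair the samples, as deviations from the group mean correlated at -0.024, 0.003 and 0.024 between samples of the same number. With the replicate block limma called 0 probes higher and 0 lower on the array, and so 0 of the 9 genes and 0 related genes. The block cannot alter a mean difference, which is -1.31 for Ldhb minus Ldha and 1.22 for Emb minus Bsg. Each had p = 0.25 (exact sign-flip test, 0.25 being the smallest that 3 pairs allow). Signals without detection calls limit what can be said of Emb, Pdk4 and Egln3.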
